A study of Symphysodon aequifasciata with 2 samples.

Results

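The genes described here were measured in the brain of the discus, an ornamental cichlid fish (Symphysodon aequifasciatus). They are claudins and their tight junction partners, the growth factor system of blood vessels, von Willebrand factor, the aquaporins and proteins with similar names. Whether each has a part in a barrier of the brain was not tested. Of 40209 assembled features in the deposited table, 61 were chosen because their protein annotation names a claudin, a tight junction protein, occludin, a junctional adhesion molecule, vascular endothelial growth factor (VEGF), an angiopoietin, von Willebrand factor or an aquaporin. A claudin-19 feature, a myelin gene in mammals, was left out by name. The rule reads names, not measured values, but it was set with earlier results of these data known. By their annotation the 61 features fall into 12 families: 13 claudins, 2 claudin domain proteins, 2 occludins, 5 junctional adhesion molecules, 3 ZO-1 scaffolds, 6 VEGF ligands, 4 VEGF receptors, 4 angiopoietin-related proteins, 5 von Willebrand factor features, 6 other proteins with a von Willebrand A domain, 6 features of a large matrix protein (SVEP1) that also holds such a domain, and 5 aquaporins.

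Brain RNA came from 1 male (the library titled Obrain) and 1 female (Tbrain), each 1 year old and from the same breeding laboratory. Both were killed in the anaesthetic MS-222 at 100 mg/L and had no other treatment in the labels. The strain is not given in the sources used here. With 1 library per sex there is no replicate check and no test between sexes. Sex, individual fish and library cannot be told apart. The labels do not explain the initials of the titles. Read as ovary and testis, O and T would go against the gender labels, and every direction between male and female given here would turn. The gender labels were followed, and nothing measured here checks them. Each value is in TPM (Salmon's transcript abundance unit, a level per length scaled to a fixed library total) for a feature assembled from reads without a genome. Where a pair of values is given, the male value comes first, and folds are female over male unless stated. Summed TPM came to 937828 for the male and 943014 for the female library. From the step between neighbouring values, about 26910000 reads lay behind the listed features for the male and 24740000 for the female. The lowest value of any feature in its higher library was 6.01 TPM. Of the 61 members, 42 reached this level in both libraries, 9 fell short of it in male brain and 10 in female brain, so those members are in the table only through the library where they were higher.

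Tight junctions seal the space between neighbouring cells of epithelia and of brain capillaries. Claudins and occludin span the membrane and form the sealing strands, junctional adhesion molecules bind across the cleft, and ZO-1 ties these proteins to the actin cytoskeleton inside the cell. In the vertebrate brain, claudin-5 is the main claudin of the capillary wall, VEGF and its receptors drive vessel growth and permeability, and aquaporins carry water or glycerol across membranes.

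Most of these genes were at close levels in the male and the female brain. On the scale of log2((female TPM + 0.5) / (male TPM + 0.5)) the median ratio of the 61 members was 0.01, beside −0.07 over all features. The members higher by 2-fold or more in female brain numbered 6, or 9.84%, beside 5.02% of all features. Those higher by 2-fold or more in male brain numbered 4, or 6.56%, beside 10.1% of all features. The 6 were 3 short claudin features, aquaporin-3-like, a VEGF C feature and a SVEP1 feature, and the 4 were a von Willebrand factor feature and 3 features of von Willebrand A domain proteins. On the TPM without the added 0.5, an ANGPTL4 feature, a Vwa7 feature and a pair of von Willebrand factor features also exceeded 2-fold. All 10 lay under 6.01 TPM in their lower library, so their presence in the table and their direction rest on the higher one. Of the 42 members that reached this level in both libraries, 0 were past 2-fold. The shares of all such features were 2.39% towards the female and 4.24% towards the male side. This count, like the others past 2-fold, is with the 0.5 added. On TPM alone the von Willebrand factor feature of 315 bases, at 13.18 and 6.54 TPM, exceeded 2-fold. At a threshold of 1.5-fold the counts were 10 and 8, beside 11.9% and 20.5% of all features. The counts differed by feature length. Of the 35 members of at least 500 bases, 0 were past 2-fold towards the female library, beside 0.747% of all such features, and 1 was past it towards the male library, beside 1.91%. Of the 26 members of at least 1000 bases, 0 were past 2-fold in either direction, beside 0.373% of all such features towards the female side and 1.01% towards the male side. Their log2 ratios ran from −0.45 to 0.94. The 26 members under 500 bases held all 6 features on the female side and 3 of the 4 on the male side, beside 8.15% and 16.2% of all features under 500 bases, and their log2 ratios ran from −1.84 to 4.71. All the differences are measured in whole brain RNA, in which fewer cells of a type and less RNA per cell cannot be told apart.

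**Figure D1:**
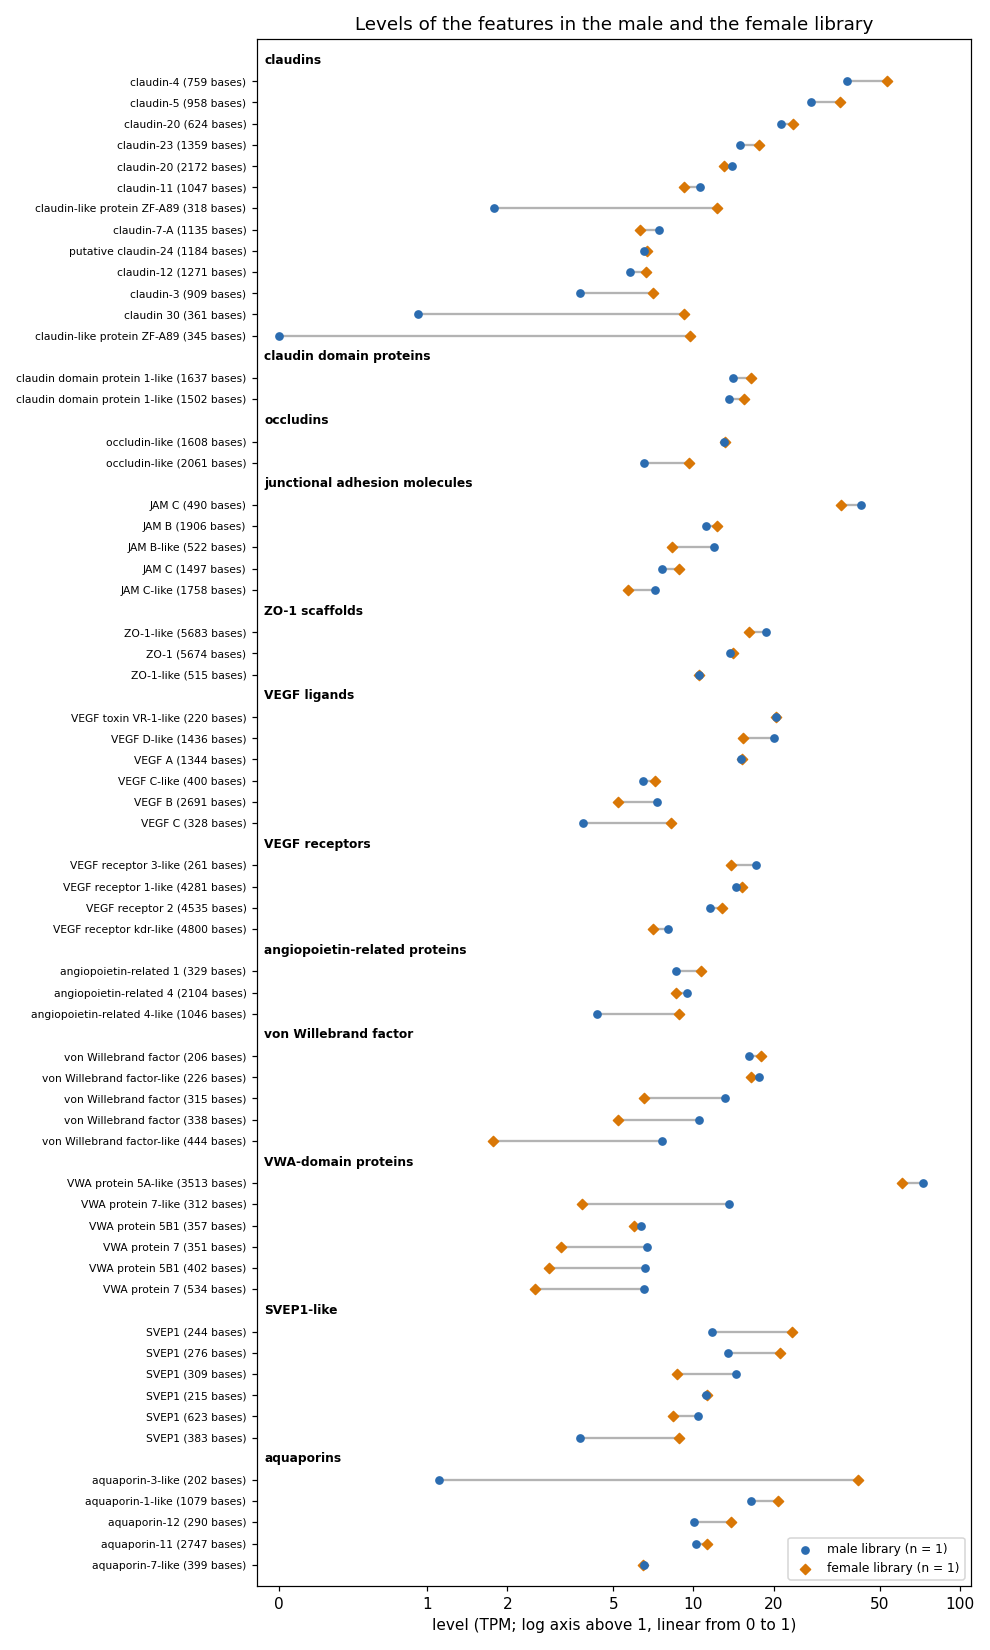
Level in TPM of 60 of the 61 features in the male library (blue circles) and the female library (orange diamonds), 1 library each, ordered by family and by mean level; the axis is logarithmic above 1 TPM and linear from 0 to 1. Most pairs of points lie close together, while the short claudin features, aquaporin-3-like and several features of von Willebrand factor or of von Willebrand A domain proteins lie far apart.

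**Figure D2:**
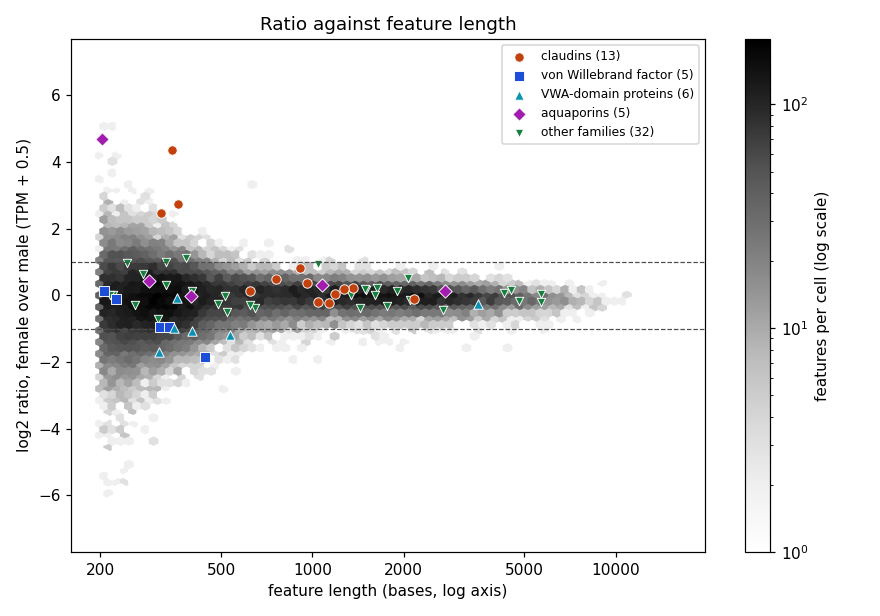
Log2 ratio of female over male TPM (with 0.5 added) against feature length in bases on a log axis, with all 40209 features as grey cells shaded by their number and the members as coloured symbols; dashed lines mark 2-fold. The spread of all features narrows with length, and the members past 2-fold are all at most 534 bases long.

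The reads behind each value give the counting error of a fold. For 60 members with reads in both libraries, an exact (Clopper-Pearson) 95% interval of the ratio of TPM was computed from the reads. It left out 1 for 33 members, or 55.0%, beside 43.5% of all features with reads in both libraries. Among the 35 members of at least 500 bases it left out 1 for 20, or 57.1%, beside 58.5% of all such features. These intervals cover counting error only and not the spread between fish, and long features have narrow ones: a claudin domain protein at 14.06 TPM in male and 16.46 TPM in female brain rests on 799 and 863 reads, and its fold of 1.17 has an interval of 1.06 to 1.29.

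Claudin-4, claudin-5, claudin-23, claudin-3 and a group of short claudin features were higher in female brain, while the other claudins did not differ beyond counting error. The summed level of the 13 features was 152.3 TPM in male and 210.4 TPM in female brain, a ratio of 1.38. Of the 13 features, 5 were under 6.01 TPM in male brain and could only be higher in female brain. The other 8 split into 5 with a log2 ratio above 0 and 3 below. All 13 carry the claudin domain of the Pfam database in the deposited annotation. Without the 3 features under 500 bases, the sums were 149.6 and 179.2 TPM, a ratio of 1.20, over 4863 male and 5102 female reads. The order of the most abundant claudins was the same in both libraries, claudin-4, claudin-5, claudin-20 (on the feature of 624 bases) and claudin-23.

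Claudin-5 (CLDN5), the claudin of brain capillaries, measured 27.54 TPM in male and 35.42 TPM in female brain, and its female-to-male fold was 1.29 (interval 1.17 to 1.42). Claudin-4 (CLDN4), in mammals a claudin of epithelia, had the highest level, at 37.67 and 53.53 TPM, with a fold of 1.42 (interval 1.29 to 1.56). Claudin-3 (CLDN3), which is found in mammals in many epithelia, measured 3.75 TPM in male and 7.05 TPM in female brain. Its fold of 1.88 (interval 1.46 to 2.43) rests on 100 and 173 reads and was the largest among claudin features of at least 500 bases. Claudin-3 was under 6.01 TPM in male brain, so it is in the table through its female value and could only be higher there. Claudin-23 measured 14.92 and 17.61 TPM, a fold of 1.18 (interval 1.06 to 1.31).

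The remaining claudin features had intervals that held 1. Claudin-11 (Cldn11), which in mice seals the layers of central myelin, measured 10.58 TPM in male and 9.22 TPM in female brain, a fold of 0.87 (interval 0.74 to 1.02). Claudin-12 (CLDN12), known from mouse brain vessels, measured 5.78 and 6.64 TPM and, being under 6.01 TPM in male brain, could only be higher in female brain. Claudin-7-A (cldn7a), an epithelial claudin in zebrafish, measured 7.41 and 6.32 TPM, and putative claudin-24 measured 6.51 and 6.70 TPM. Claudin-20 was represented by features of 624 and 2172 bases from the same assembly component, so they may be pieces of 1 gene. The shorter measured 21.40 and 23.60 TPM and the longer 14.01 and 13.07 TPM, with the libraries in opposite order.

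The largest claudin differences lay in a group of short features related to claudin-4. A feature of 361 bases annotated as claudin 30, a fish claudin, measured 0.94 TPM in male and 9.22 TPM in female brain, over 4 and 35 reads, and its fold of 9.81 had an interval of 3.49 to 37.8. Claudin-like protein ZF-A89, a claudin first named in zebrafish, was represented by features of 318 and 345 bases. The former measured 1.78 and 12.28 TPM over 5 and 31 reads, a fold of 6.90 (interval 2.67 to 22.8). The latter was listed at 0 in the male library and at 9.73 TPM in the female library, over 0 and 32 reads, where 3 reads in the male library would be 0.82 TPM. Each of these features was under 6.01 TPM in the male library and could only be higher in the female one, so their shared direction carries no weight. The group held 98 female and 9 male reads.

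All 3 match a claudin-4 entry of the Swiss-Prot database. The claudin 30 feature and the ZF-A89 feature of 345 bases share the assembly component TRINITY_DN8506_c0, so how their reads were divided between them is uncertain. A further feature of 352 bases, with the symbol cldnd, has ZF-A89 as its Swiss-Prot match and a hypothetical protein as its annotation, and so is not a member. It comes from the same component as the ZF-A89 feature of 318 bases and measured 1.02 TPM in male and 6.28 TPM in female brain, over 4 and 22 reads. With under 6.01 TPM in the male library, each of these features is in the table through its female value.

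Markers of epithelia were measured beside these claudins. Of 26 epithelial genes 9 were measured, with summed levels of 261.2 TPM in male and 298.0 TPM in female brain. Their median log2 ratio was 0.19, beside −0.07 over all features. By 2-fold or more, 1 was higher in female and 1 in male brain, beside 5.02% and 10.1% of all features. Both features are under 500 bases, where the shares were 8.15% and 16.2%. Higher by 2-fold or more in female brain was tp63, a transcription factor of stratified epithelia, at 5.50 and 20.82 TPM over 7 and 24 reads. With under 6.01 TPM in male brain, tp63 could only be higher in female brain. Higher by 2-fold or more in male brain was itgb4, an integrin of epithelial attachment, at 20.79 and 7.30 TPM over 22 and 7 reads. The simple keratin gene krt8, the most abundant, measured 113.2 and 141.3 TPM, and cdh1, an epithelial cadherin, 9.68 and 7.07 TPM. The defining genes epcam, krt4, krt5, esrp1 and grhl3 were not measured. What part epithelial cells had in the claudin values was not tested.

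Neither occludin nor the claudin domain proteins reached 2-fold. Of the occludin features, OCLN, with 2061 bases, measured 6.54 TPM in male and 9.63 TPM in female brain, a fold of 1.47 (interval 1.31 to 1.66). The other, ocln, with 1608 bases, measured 13.02 and 13.15 TPM, a fold of 1.01 (interval 0.91 to 1.12). Both carry the MARVEL membrane domain, and they come from different assembly components. The claudin domain protein features (CLDND1), relatives of the claudins, measured 14.06 and 13.64 TPM in male brain and 16.46 and 15.44 TPM in female brain.

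Junctional adhesion molecules, immunoglobulin-type adhesion proteins of junctions and leukocytes, were slightly higher in the male library in sum, at 80.64 against 70.96 TPM, while the median log2 ratio of −0.25 became 0.14 over features of at least 1000 bases. The most abundant, a junctional adhesion molecule C feature (Jam3) of 490 bases, measured 42.77 TPM in male and 35.91 TPM in female brain, a female-to-male fold of 0.84 (interval 0.72 to 0.98). A Jam3 feature of 1497 bases from the same component measured 7.62 and 8.84 TPM, a fold of 1.16 (interval 1.01 to 1.33), so features of the same component pointed in opposite directions. Another, JAM3 on 1758 bases and from another component, measured 7.18 and 5.66 TPM. With under 6.01 TPM in female brain, it could only be lower there. The JAM2 feature measured 11.10 and 12.24 TPM, and its interval held 1. A junctional adhesion molecule B-like feature of its component measured 11.97 and 8.31 TPM, a fold of 0.69 (interval 0.52 to 0.92). No member of this family reached 2-fold.

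The ZO-1 scaffold (TJP1) was near equal. Its features of 5683, 5674 and 515 bases measured 18.74, 13.68 and 10.48 TPM in male brain and 16.23, 14.13 and 10.45 TPM in female brain. The first, at 4202 and 3364 reads, had a fold of 0.87 (interval 0.83 to 0.91), and the intervals of the others held 1.

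Other proteins of the junction plaque, taken from a list of 30 partners, were measured for 16 genes. By 2-fold or more, 0 were higher in female and 2, or 12.5%, in male brain, beside 5.02% and 10.1% of all features. Both lie under 500 bases, where the shares of all features were 8.15% and 16.2%. The list median was −0.02. The 2 were ildr1, a receptor of tricellular contacts, at 21.06 TPM in male and 6.49 TPM in female brain, and patj, a polarity scaffold, at 17.20 and 7.44 TPM. Their features are short, with 272 and 249 bases. The ildr1 values rest on 36 and 10 reads and the patj values on 23 and 9. The relative ildr2, on 2046 bases, went the other way at 8.57 and 14.90 TPM. The GTPase gene cdc42, which takes part in cell polarity, was the most abundant at 95.01 and 91.63 TPM.

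**Figure D3:**
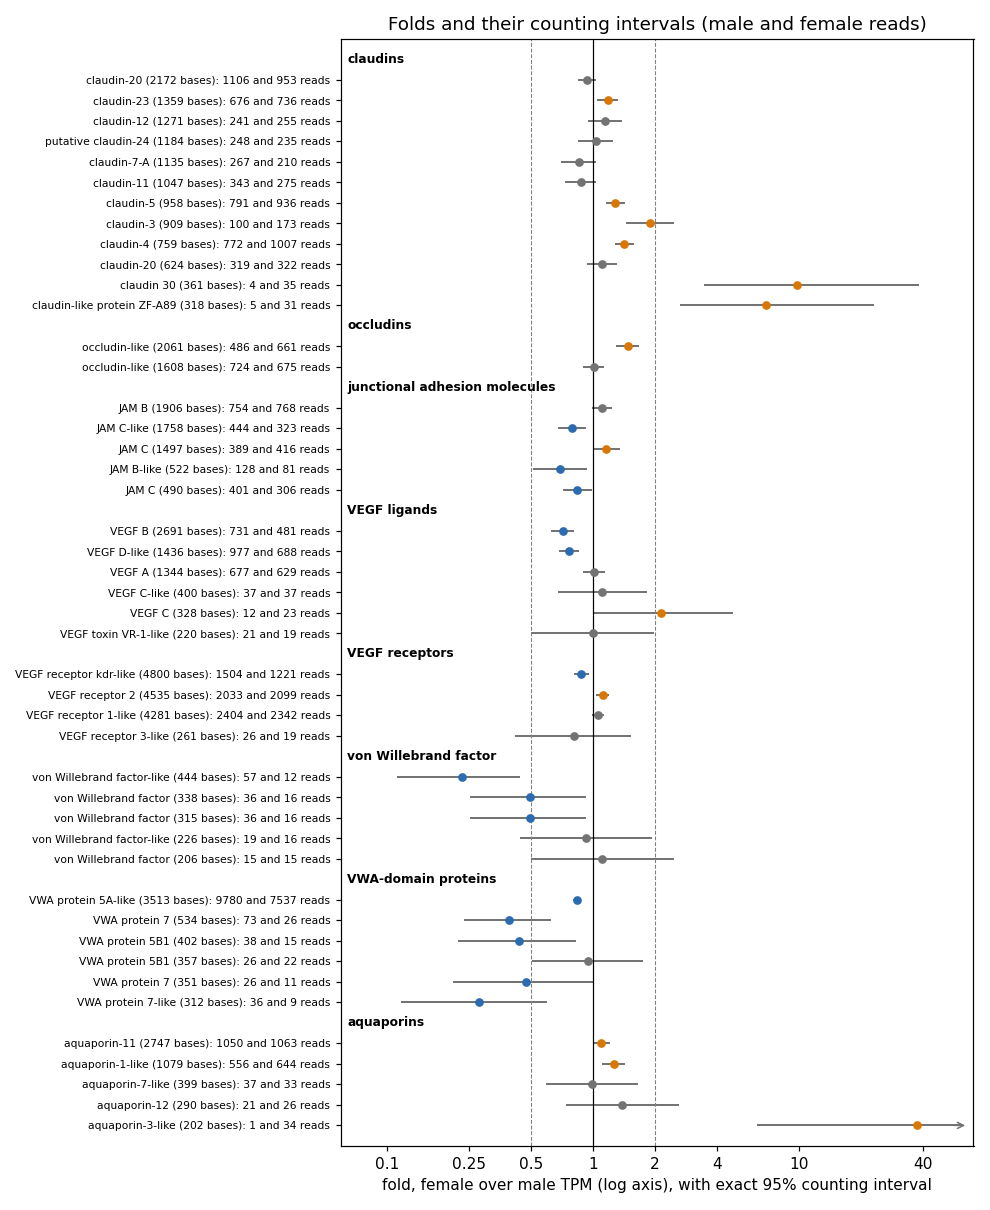
Female-to-male fold of TPM on a log axis, with its exact 95% counting interval, for the members of 8 families that had reads in both libraries; the reads of the male and then the female library follow each name, orange marks intervals above 1, blue those below 1 and grey those that hold 1, and dashed lines mark 2-fold. Long features sit near 1 with narrow intervals, and the interval of aquaporin-3-like runs past the right edge, to 1527.

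Of the VEGF ligands, VEGF D and VEGF B were lower and a VEGF C feature was higher in female brain beyond counting error. VEGF A was near equal. The interval left out 1 for 3 of the 6 ligands, or 50.0%, beside 43.5% of all features with reads in both libraries. VEGF B was under 6.01 TPM in female brain and the VEGF C feature in male brain. The direction of these features was thus fixed by their presence in the table. The median log2 ratio of the 6 ligands was 0.01, and −0.38 over the features of at least 500 bases. The ligands summed to 73.39 TPM in male and 71.76 TPM in female brain. VEGF A (vegfaa), the main signal for vessel growth and permeability, measured 15.14 and 15.26 TPM, a fold of 1.01 (interval 0.90 to 1.12). VEGF D-like (Vegfd), which in mammals acts on lymphatic vessels, measured 20.15 and 15.39 TPM, a fold of 0.76 (interval 0.69 to 0.84). VEGF B, which in mammals binds VEGF receptor 1, measured 7.28 and 5.19 TPM, a fold of 0.71 (interval 0.63 to 0.80). Its Swiss-Prot match is VEGF A, so its name is uncertain.

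The lymphatic growth factor VEGF C was represented by features of 328 and 400 bases from different components. The shorter (Vegfc) measured 3.85 TPM in male and 8.24 TPM in female brain, over 12 and 23 reads. Its fold of 2.14 had an interval of 1.02 to 4.72, but with under 6.01 TPM in male brain it could only be higher in female brain. The longer (VEGFC) measured 6.47 and 7.19 TPM with 37 reads in each library, and its interval held 1. A feature of 220 bases whose closest annotated protein is a snake venom VEGF, and whose KEGG description is placenta growth factor, measured 20.50 and 20.49 TPM.

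Of the VEGF receptors, which are tyrosine kinases of endothelial cells, none reached 2-fold. VEGF receptor 1 (FLT1) measured 14.46 TPM in male and 15.25 TPM in female brain over 2404 and 2342 reads, and its interval held 1. VEGF receptor 2 (kdr), the main signalling receptor in mammals, measured 11.50 and 12.85 TPM, a fold of 1.12 (interval 1.05 to 1.19). The kdr-like receptor (kdrl), which carries much of this role in zebrafish, measured 8.01 and 7.04 TPM, a fold of 0.88 (interval 0.81 to 0.95). VEGF receptor 3 (flt4), a receptor for VEGF C, measured 17.14 and 13.86 TPM on a feature of 261 bases with 26 and 19 reads, and its interval held 1.

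The angiopoietin rows were all angiopoietin-related proteins, secreted relatives of which ANGPTL4 inhibits lipoprotein lipase in mammals. No angiopoietin and no angiopoietin receptor was among the members. An ANGPTL4 feature of 1046 bases measured 4.36 TPM in male and 8.79 TPM in female brain over 141 and 262 reads, a fold of 2.02 (interval 1.64 to 2.49). With 0.5 TPM added its log2 ratio was 0.94, under the 2-fold line, and it was the largest ratio among members of at least 1000 bases. Under 6.01 TPM in male brain, this feature could only be higher in female brain. The other ANGPTL4 feature, on 2104 bases, measured 9.44 and 8.61 TPM. ANGPTL1 measured 8.57 and 10.64 TPM, with an interval that held 1.

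Von Willebrand factor is the glycoprotein of endothelial cells and thrombocytes that binds platelets at a wound. Some of its pieces were lower in the female library, and the intervals of the others held 1. All 5 features are under 500 bases and match the VWF gene, so they may be fragments of 1 long transcript. A feature of 444 bases measured 7.61 TPM in male and 1.77 TPM in female brain over 57 and 12 reads, and the male-to-female interval ran from 2.28 to 8.80. Features of 315 and 338 bases measured 13.18 and 10.47 TPM in male brain and 6.54 and 5.20 TPM in female brain. Each rests on 36 and 16 reads. Their female-to-male folds of 0.50 and 0.50 had intervals of 0.26 to 0.92.

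The remaining VWF features, of 206 and 226 bases, measured 16.18 and 17.66 TPM in male brain and 17.92 and 16.41 TPM in female brain. The former rests on 15 and 15 reads and the latter on 19 and 16. Their intervals, 0.505 to 2.432 and 0.447 to 1.907, held 1 but overlap those of the features of 315 and 338 bases. Pieces of the VWF match thus ranged from a female-to-male fold of 0.23 to one of 1.11. Over all 5, the sum was 65.10 TPM (163 reads) in male and 47.84 TPM (75 reads) in female brain. Features of 338 and 444 bases share the component TRINITY_DN12131_c3 and are not independent of each other, and both were under 6.01 TPM in female brain and could only be lower there.

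Proteins that share only the von Willebrand A domain, a fold that binds other proteins, were represented by 6 features, of which 5 were under 6.01 TPM in female brain and could only be lower there. The other, and the most abundant of all 61 members, Vwa5a, measured 72.74 TPM in male and 60.68 TPM in female brain over 9780 and 7537 reads, a fold of 0.83 (interval 0.81 to 0.86). The 3 features of von Willebrand factor A domain-containing protein 7 (Vwa7), of 312, 351 and 534 bases, measured 13.60, 6.70 and 6.52 TPM in male brain and 3.80, 3.17 and 2.55 TPM in female brain. The longest was the 1 member of at least 500 bases past 2-fold. Its fold was 0.39 (interval 0.24 to 0.62) over 73 and 26 reads. Together the Vwa7 features held 135 male and 46 female reads.

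VWA5B1, a relative of Vwa5a, was represented by features of 357 and 402 bases from the same component. They measured 6.36 and 6.55 TPM in male brain and 6.0 and 2.87 TPM in female brain, so only the second was past 2-fold.

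SVEP1, a large matrix protein that takes part in lymphatic vessel development in zebrafish and mice, was represented by 6 short features of 215 to 623 bases. The features of 215, 276 and 309 bases share an assembly component and are not independent of each other. Beyond counting error, 2 of the 6 were higher and 0 were lower in female brain. These make 33.3%, beside 43.5% of all features with reads in both libraries. The feature of 383 bases measured 3.76 TPM in male and 8.81 TPM in female brain over 19 and 40 reads, a fold of 2.34 (interval 1.33 to 4.28). With under 6.01 TPM in male brain, it could only be higher in female brain. That of 244 bases measured 11.78 and 23.43 TPM (interval 1.02 to 4.02). The feature of 309 bases measured 14.43 and 8.71 TPM, and its interval of 0.33 to 1.07 held 1. The features of 215, 276 and 623 bases measured 11.16, 13.43 and 10.39 TPM in male and 11.22, 21.14 and 8.40 TPM in female brain, with intervals that held 1. By Swiss-Prot, those of 276 and 623 bases match CSMD2 and SELE, so the assignment of these pieces to 1 gene is uncertain. A further feature of 1699 bases matches SVEP1 by Swiss-Prot but is annotated as membrane cofactor protein, and so is not a member. It measured 65.89 TPM in male and 47.28 TPM in female brain, over 3913 and 2590 reads.

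The summed aquaporins were higher in the female library, mostly through 1 short feature. Aquaporin-3-like, a channel for water and glycerol found in mammalian epithelia and skin, measured 1.11 TPM in male and 41.56 TPM in female brain. The feature is 202 bases long and rests on 1 and 34 reads, so its fold of 37.4 had an interval of 6.30 to 1527. Being under 6.01 TPM in male brain, it could only be higher in female brain. With it the aquaporins summed to 44.38 TPM in male and 93.85 TPM in female brain, and without it to 43.27 and 52.29 TPM. It carries no gene symbol and no Swiss-Prot match in the deposited annotation.

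Aquaporin-1-like (AQP1), a water channel of the choroid plexus in mammals, measured 16.48 and 20.74 TPM, a fold of 1.26 (interval 1.12 to 1.41). Aquaporin-11 (AQP11), a channel of internal membranes in mammals, measured 10.22 and 11.20 TPM, a fold of 1.10 (interval 1.01 to 1.20). Aquaporin-12 (Aqp12) measured 10.06 and 13.89 TPM and aquaporin-7-like (Aqp7), a glycerol channel, 6.51 and 6.46 TPM, and both intervals held 1. Aquaporin-4, the water channel of astrocyte endfeet in mammals, was not among the members.

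**Figure D4:**
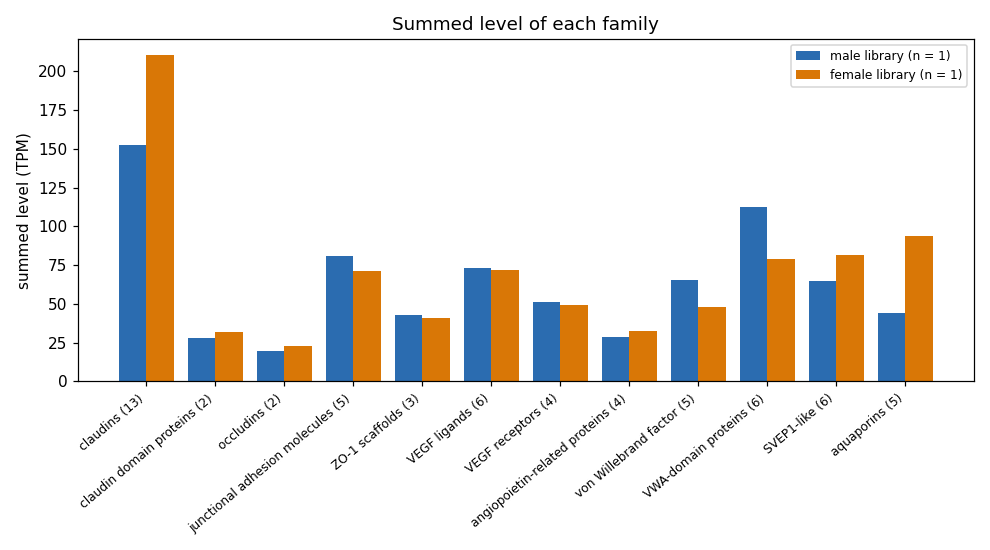
Summed level in TPM of each family in the male (blue) and female (orange) library, 1 library each, with the number of features in brackets. The claudins reached 152.3 and 210.4 TPM and the aquaporins 44.38 and 93.85 TPM, while the ZO-1 scaffolds, VEGF ligands and VEGF receptors were near equal.

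Other genes of the vessel wall were taken from lists to set the members beside. Of 33 endothelial markers 19 were measured, 5 of them members. Past 2-fold were 0, beside 5.02% and 10.1% of all features and 0.747% and 1.91% of those of at least 500 bases, a length that 13 of the 19 reached. Their median log2 ratio was 0.05, and 0.03 over the 14 that are not members. The secreted vessel factor egfl7 was the most abundant, at 28.19 TPM in male and 38.46 TPM in female brain, and the transcription factor sox7 measured 6.90 and 9.55 TPM. The scavenger receptor stab1 measured 9.76 and 6.47 TPM, the largest ratio in either direction, but on a feature of 220 bases with only 10 and 6 reads. The endothelial cadherin cdh5 measured 14.21 and 11.78 TPM (20 and 15 reads on 254 bases), and the vessel guidance receptor robo4 18.00 and 16.63 TPM. The endothelial label thus rests on cdh5, kdr, flt1, CLDN5, egfl7 and others, while pecam1, tek, tie1, plvap and erg were not measured.

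Transporters and signals of the blood-brain barrier were measured for 15 of 19 genes, each on at least 500 bases. Past 2-fold were 0, beside 0.747% and 1.91% of all features of this length. Lower in female brain were 13 of the 15, beside 55.3% of all such features, and 2 of the 13 were under 6.01 TPM there. The median log2 ratio was −0.12, beside −0.04. The glucose transporter of the barrier, slc2a1, measured 22.70 TPM in male and 15.40 TPM in female brain, and the anion transporter slco2b1 6.62 and 4.67 TPM. The most abundant was ctnnb1, the Wnt signal carrier that also sits at cell junctions, at 169.3 and 167.0 TPM. Of 20 angiogenic signalling genes 12 were measured, with a median of −0.22 and 0 past 2-fold, beside 5.02% and 10.1% of all features. In this list the hypoxia factor gene hif1a had the highest level, at 76.71 and 67.87 TPM, and epas1, another hypoxia factor, measured 23.72 and 14.15 TPM over 3025 and 1667 reads. The receptor gene ephb4, a marker of veins, measured 27.78 and 17.57 TPM over 749 and 435 reads. On few reads, bmp10, a growth factor for endothelial cells, measured 16.35 and 9.03 TPM (20 and 10 reads) and notch1 6.51 and 11.16 TPM (11 and 17 reads).

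Pericytes and smooth muscle wrap the vessels. Of 14 of their markers 10 were measured, with a median of −0.07. Past 2-fold were 0 on the female side and 1 on the male side, beside 5.02% and 10.1% of all features. Under 500 bases, where the 1 lies, the shares were 8.15% and 16.2%. The exception was abcc9, a potassium channel subunit, at 26.16 TPM in male and 10.70 TPM in female brain on a feature of 221 bases with 27 and 10 reads. The feature with the symbol notch3 carries the annotation of notch 2 and measured 8.55 and 5.26 TPM. Under 6.01 TPM in female brain, it could only be lower there. Rgs5, a pericyte regulator of G proteins and the most abundant, measured 32.68 and 22.80 TPM. The pericyte receptor pdgfrb measured 20.60 and 18.92 TPM.

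Ependymal, choroid plexus and meningeal markers, cell types that also hold claudins and aquaporins, were measured for 11 of 18 genes. Higher in female brain were 9 of the 11, beside 43.7% of all features. Of the 9, 3 were under 6.01 TPM in male brain and could only be higher in female brain. The 8 that reached this level in both libraries split into 6 higher and 2 lower, beside 53.9% of all such features lower. Past 2-fold was 1, on 301 bases, beside 5.02% of all features and 8.15% of those under 500 bases towards the female side. The list median was 0.35, with sums of 105.9 and 129.4 TPM. The collagen gene col1a1 measured 3.82 TPM in male and 13.27 TPM in female brain over 9 and 28 reads. The cilia regulator foxj1 measured 6.52 and 11.73 TPM (18 and 29 reads). The secreted enzyme gene enpp2 had the highest level at 19.54 and 16.22 TPM. The choroid plexus gene ttr was not measured. Whether these cells had a part in the claudin and aquaporin values was not tested.

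Haemoglobin RNA, a mark of red blood cells, was higher in the female library. The 5 features annotated as haemoglobin subunits summed to 1071.5 TPM in male and 2324.8 TPM in female brain, a ratio of 2.17, and each was higher in the female library. Of 13 red cell genes 3 were measured, hbaa among them, with a median log2 ratio of 0.79. The red cell genes alas2 and slc4a1 measured 8.52 and 12.31 TPM in male and 15.12 and 11.31 TPM in female brain. What part the blood content had in the VWF values and in those of the endothelial genes was not tested.

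Neuron, radial glia, myelin and microglia markers were measured for 8, 11, 4 and 7 genes, with medians of −0.04, −0.06, 0.13 and −0.10. Past 2-fold in these lists were the neuronal gene elavl3 and the macrophage gene mpeg1. The elavl3 feature, of 1294 bases, measured 52.74 TPM in male and 25.87 TPM in female brain over 2248 and 1016 reads. Of all features of at least 1000 bases, 1.01% were past 2-fold towards the male side. The mpeg1 feature, of 470 bases, measured 2.10 and 7.22 TPM over 18 and 56 reads. With under 6.01 TPM in male brain, mpeg1 could only be higher in female brain. Over all features, 5.02% were past 2-fold towards the female side and 10.1% towards the male side. The most abundant of each list were snap25, fabp7, mag and apoe, in that order, and each was within 2-fold.

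**Figure D5:**
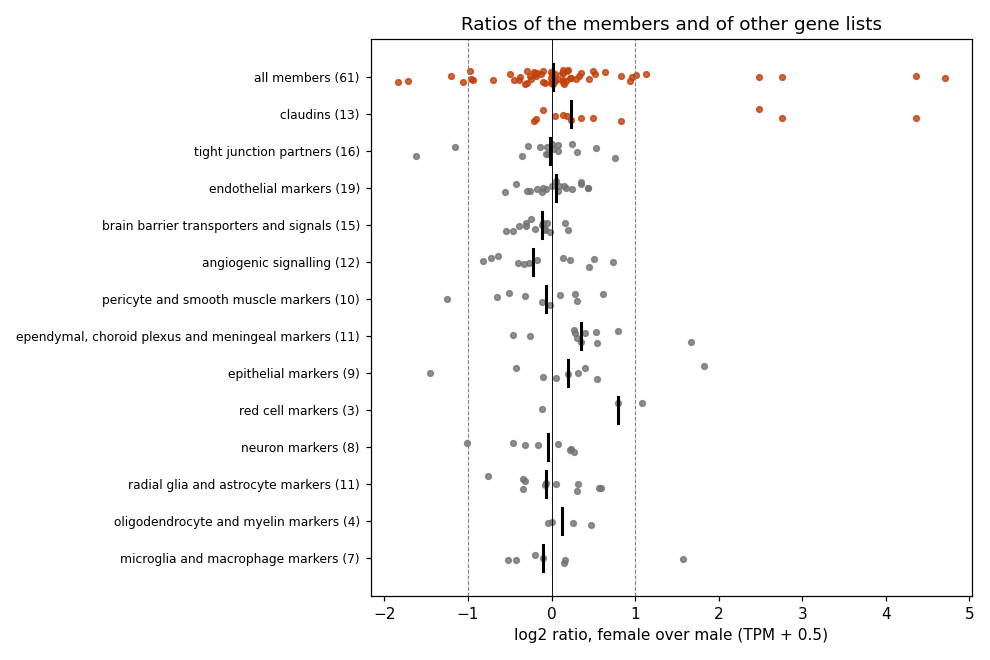
Log2 ratio of female over male TPM (with 0.5 added) for the 61 members, the 13 claudins and the measured genes of each list, with the number of points in brackets; each point is 1 feature, black bars are medians and dashed lines mark 2-fold. The endothelial, barrier and angiogenic lists lie between the dashed lines, and the claudins extend to 4.36.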

How the data were processed

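Brain poly(A) RNA of 1 male and 1 female discus was sequenced in paired ends, and libraries were grouped by their gender label. The deposited values are TPM, taken as such from their sum and from Salmon in the submitters' processing notes, which also name cutadapt, FastQC and edgeR without versions or roles. Feature identifiers have the form of the Trinity assembler, and no genome is named. Fixed totals make TPM relative, and a feature may be a piece of a gene.

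Members and lists were chosen with earlier results of these data known. A feature's annotation had to hold one of the 8 search terms in any case, and Cldn19 was left out. The values of 1 member, which is in the counts, are not reported here. List genes were matched by symbol, with or without a final a or b, and represented by the feature with the highest mean. The genes dll4, spint2, lama3 and acvrl1 were left out because their features carry another protein's annotation. Named were members past 2-fold on at least 500 bases, in each family the 3 most abundant and the largest ratio each way, members at 0, and features of the same gene. In the neuron, radial glia, myelin and microglia lists, only the most abundant gene and those past 2-fold were named. Of each other list, the most abundant gene and those with the 2 largest ratios were named. The remaining names serve to account for every member or as further examples, and were chosen with their values in view.

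The ratio adds 0.5 TPM to each value, which understates the change of low features, while folds are ratios of TPM without it. No count test was run. Requiring 1 TPM in either library removed 0 features.

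Values at 1 feature length are whole multiples of a step, taken as 1 read. The step was found for each length from 201 to 380 bases, followed up to about 700 bases, and extended by a straight line in length. Within 0.1 of a whole number of reads lay 95.5% of 13352 male and 95.2% of 15034 female values under 30 reads at 201 to 380 bases. At 701 to 900 bases, of which only the first few lengths were used to find the step, the shares were 80.6% of 67 and 86.0% of 171 values under 100 reads. Values spread evenly between whole numbers would give 20%. Intervals assume independent reads, so duplicate reads make them too narrow.

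Computation used SciPy 1.17.1, pandas 2.3.3 and NumPy 2.4.6 in Python 3.11.15, and figures used Matplotlib 3.10.9. The recovery of reads and the calls past 2-fold were tried on simulated counts. That simulation left out the lower limit of 6.01 TPM and did not cover the intervals. Alternatives were other pseudocounts, minimums, lengths, thresholds, centring, features per name and member rules.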

Additional observations from a re-analysis of the deposited data

How the results depend on the processing

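Of the members, 6 were higher by 2-fold or more in female and 4 in male brain, and these counts moved under several choices of features or threshold. They were 0 and 1 over features of at least 500 bases, 0 and 0 from 1000 bases, 1 and 1 with 1 feature per name, 2 and 2 with TPM summed per name, 2 and 1 at a minimum of 10 TPM, and 10 and 8 at 1.5-fold. Without rows of other proteins, 1 member was past 2-fold towards the male side. These alternatives hold fewer features or another threshold by construction. Centring moved the median of the ZO-1 scaffolds from 0.00 to 0.07 and that of the claudin domain proteins from 0.20 to 0.27. Of 173 values recomputed in all, 158 stayed within 1.5 times the count or within the interval of the median from order statistics (the whole range under 6 features). Some of these could not move, since dropping the minimum changed no feature and the threshold does not enter a median. Others stayed within the interval while their sign changed, so the 158 do not measure stability. The claudin median of 0.23 was −0.03 over features of at least 1000 bases, and that of von Willebrand factor, −0.94, was 0.14 with 1 feature per name. Adding the features matched by Swiss-Prot name only, an alternative chosen after seeing the data, gave 7 and 4. Depth limits the short features most, since the 26 members under 500 bases rest on 987 male and 888 female reads. No paired analysis was possible because each sex has 1 library.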
